A study of Mus musculus with 16 samples.

Results

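The cytosolic ribosomal protein genes encode the protein part of the ribosomes that work outside mitochondria. They were taken by name, as symbols made of Rpl or Rps, a number and at most 1 further letter, together with Rplp0, Rplp1, Rplp2 and Rpsa. Kinases of the Rps6k family and pseudogenes marked -ps were left out, and only probe sets with a single gene symbol were used, with the brightest kept for each gene. This gave 46 genes among the 18194 genes of the array: 22 of the small subunit, 22 of the large subunit and the 2 stalk proteins Rplp0 and Rplp2. Another 28 ribosomal protein symbols, Rplp1 among them, occur only on probe sets with several symbols and are not analysed here, and neither is Rps27a.

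Mouse neural crest cells, described as primary material, were profiled on 16 arrays in 4 groups of 4. The groups were Glia (cells primed towards glia), Autonomic (primed towards neurons), Mesenchymal (primed towards mesenchyme) and NCSCs (unprimed neural crest stem cells, the control). The labels name instructive growth factors as the treatment, on the unprimed arrays too, without naming the factors or how long they acted, and genotype, strain and embryonic age are not stated in these sources. Nothing tells whether the 4 arrays of a group stand for separate cultures or litters, so the p-values reflect the spread among these arrays alone, and that spread may be technical. Of 12 neural crest markers, 11 were measured and all 11 lay above the median gene by their mean over 16 arrays, Sox10 at 7.88 and Erbb3 at 8.95 on the log2 scale. On Autonomic arrays alone Mef2c averaged 3.21, below the median of all genes there at 3.85. The mean level of these 11 ran from 6.87 to 7.29 on Glia, 5.42 to 6.68 on Autonomic, 7.24 to 7.70 on Mesenchymal and 6.61 to 7.52 on NCSCs arrays. None of 6 endothelial, 6 immune or 6 skeletal muscle markers lay above the median gene, against 3 of 6 epidermal and 1 of 5 measured erythroid markers. The mean level of the erythroid list ran from 2.39 to 3.16 on Glia, 2.37 to 5.64 on Autonomic, 2.45 to 5.04 on Mesenchymal and 2.52 to 5.02 on NCSCs arrays, with none of its genes at 0, and its part in the results was not tested.

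Each ribosome joins a small subunit, which decodes the mRNA, to a large subunit, which forms the peptide bond. The stalk of the large subunit recruits the elongation factors. Mammalian ribosomal protein mRNAs carry a pyrimidine tract at the 5′ end, the terminal oligopyrimidine motif, through which mTOR signalling and the RNA-binding protein Larp1 set their translation together. Mutations of single ribosomal proteins act on particular embryonic tissues in mice, including the axial skeleton in Rpl38 mutants, and in humans cause Diamond-Blackfan anaemia, in which craniofacial structures derived from neural crest can be affected.

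Promoters of 40 of the 46 genes were found by gene identifier among RefSeq sequences of build GRCm38.p6, each spanning 250 bases before and 50 from the annotated start. The 6 windows printed here belong to members described below, none of them called. They are a stalk protein (Rplp2), the gene with low values in all 3 primed groups (Rpl14) and members low in the glia-primed or neuron-primed arrays (Rpl19 and Rpl4). The others are one with higher values on Autonomic arrays (Rpl38) and the one with the widest scatter (Rps25). Each window runs from 70 bases before the annotated start to the 30th base from it, on the plus strand. Capitals mark every C within 10 bases of the start that is followed by 4 or more pyrimidines, with those pyrimidines, and matches to CCATNTT (the YY1 motif) or CCGGAAG (the ETS motif) on either strand. The windows are chr7:141447581-141447680 for Rplp2, chr9:120571447-120571546 for Rpl14, chr11:98026640-98026739 for Rpl19 (the first of 2 promoters), chr11:114668510-114668609 for Rpl38, chr9:64173317-64173416 for Rpl4 and chr9:44407644-44407743 for Rps25.
Rplp2: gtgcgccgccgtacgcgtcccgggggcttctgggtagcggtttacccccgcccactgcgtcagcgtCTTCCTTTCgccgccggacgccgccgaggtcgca
Rpl14: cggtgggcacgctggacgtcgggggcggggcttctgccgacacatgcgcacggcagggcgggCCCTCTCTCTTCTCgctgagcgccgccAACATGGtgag
Rpl19: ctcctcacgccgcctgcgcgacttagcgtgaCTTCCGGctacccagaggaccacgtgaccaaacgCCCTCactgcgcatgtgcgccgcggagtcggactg
Rpl38: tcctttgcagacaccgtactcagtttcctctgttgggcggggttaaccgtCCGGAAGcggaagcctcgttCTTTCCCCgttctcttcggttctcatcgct
Rpl4: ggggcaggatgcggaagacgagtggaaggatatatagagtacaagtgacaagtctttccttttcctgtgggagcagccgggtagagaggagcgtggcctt
Rps25: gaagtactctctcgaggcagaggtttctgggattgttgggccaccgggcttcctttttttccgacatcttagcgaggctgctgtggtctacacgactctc

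In Rplp2, Rpl14 and Rpl38 the annotated start was a C inside a pyrimidine run of 10, 14 and 10 bases, which began 5, 8 and 2 bases before it. In Rpl19 a run of 5 bases began 5 bases before the start. In Rpl4 and Rps25 no such C lay within 10 bases, although both printed windows hold a pyrimidine run with such a C farther upstream. Over the 40 members, 8 (20.0%) had a C at the start followed by 4 pyrimidines in at least 1 promoter, against 3.01% of 27025 genes. With 10 bases allowed on either side, 26 members (65.0%) and 34.4% of all genes had such a run. CCGGAAG occurred on either strand of the whole window in 20 of the 40 members and in 9.93% of all genes, and CCATNTT in 12 of the 40 members and 18.19% of all genes. TATAAA in the 50 bases before the start was found in none of the 40 members and in 3.15% of genes. The reverse complement of CCGGAAG holds a C followed by 4 pyrimidines, but in no member did all runs near the start lie inside such a match. These matches describe letters in a window and not sites in use.

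The probe sets of ribosomal proteins were mostly bright and steady. Of the 46 members, 36 lay among the brightest 10% of genes, above a mean log2 intensity of 8.03, which describes the signal of the probe set and does not rank transcripts of different genes. Averaged over 16 arrays, log2 intensity was 13.10 for Rpl13a, 13.02 for Rpl41, 12.91 for Rpsa, 12.70 for Rpl38, 12.66 for Rps29 and 12.46 for Rps28. At the other end, the single-symbol probe sets of Rps16 (1.5), Rpl37 (1.66), Rpl39l (2.08) and Rpl3l (2.13) gave almost no signal. Rpl3l and Rpl39l are paralogs known from striated muscle and testis, whereas Rps16 and Rpl37 are standard subunit proteins, so for these the value describes the probe set. The SD within groups had a median of 0.139 over the 36 bright members, against 0.386 over the 1784 other genes above the same threshold, which were dimmer on average, and 0.438 over all genes. It was smallest for Rpsa (0.073), Rps28 (0.074), Rps20 (0.084) and Rpl13a (0.087), and largest for Rps25 (1.61), Rpl12 (0.96), Rps6 (0.83) and Rps4l (0.52).

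No member passed the test in any of the 3 comparisons with unprimed cells. In limma's model over all 16 arrays, with p-values adjusted over all genes, 0 of 46 were called at an adjusted p under 0.05 in Glia, Autonomic or Mesenchymal against NCSCs arrays, where 0.511%, 0.434% and 0.0220% of all genes were called. The mean of the 3 primed groups against unprimed gave 0 of 46 as well, against 0.445% of all genes. limma with a trended, robust prior and limma with array weights also called 0 in each of these comparisons. All 4 comparisons share the NCSCs arrays.

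The members' log2 changes were small and mostly below 0 as deposited. The sign of their median depended on how the arrays were scaled in Glia and Autonomic against NCSCs arrays. In Mesenchymal arrays the median stayed below 0 under all 28 alternative ways of processing, from -0.25 to -0.06. The median log2 change was -0.19 in Glia, -0.08 in Autonomic and -0.18 in Mesenchymal against NCSCs arrays, or -12.1%, -5.72% and -11.5%, and it was 0.03, 0.11 and -0.08 when arrays were centred on 17 housekeeping genes outside the ribosome. Over all genes the median was -0.01, 0.00 and -0.01, and over the 1784 other bright genes it was -0.13, -0.16 and -0.13. The 17 housekeeping genes themselves had medians of -0.42, -0.35 and -0.11 as deposited. Centring used the mean of these 17 genes on each array, and not their median. It put the median of all genes at 0.21, 0.19 and 0.09, above that of the members in each comparison. As deposited, 39, 30 and 42 of the 46 members lay below 0 in these comparisons, and after centring on housekeeping genes 20, 12 and 33. Centred on the other bright genes, the medians were -0.09, 0.02 and -0.06. In bulk RNA, fewer cells of a type and less RNA per cell cannot be told apart.

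At an unadjusted p under 0.05, 5 members were lower and 1 was higher in Glia than in NCSCs arrays, against 5.91% and 4.00% of all genes. In Autonomic arrays 4 were lower and 1 higher (5.51% and 4.29% of all genes), and in Mesenchymal arrays 11 were lower and 1 higher (4.56% and 3.14%). For the mean of the 3 groups the numbers were 9 and 1 (6.54% and 3.62%). The higher member was Rps25 each time. Bright genes had such p-values more often than all genes. Among the 1784 other bright genes, 221, 257, 175 and 280 were lower and 84, 86, 52 and 74 higher, in the same order. Of the 36 bright members, 5, 3, 9 and 9 were lower and 0 higher. The glia count of 6 became 3 without Glia replicate 1 and 11 without Glia replicate 4, and the count of 5 for Autonomic became 1 without NCSCs replicate 4, 2 without Autonomic replicate 1 or 4, and 3 without Autonomic replicate 3 or NCSCs replicate 1 or 3. The mesenchymal count of 12 was 8 without NCSCs replicate 1 or Mesenchymal replicate 2 and 9 to 12 without any other array, and the count of 10 for the mean became 2 without NCSCs replicate 4, 5 without NCSCs replicate 1 and 6 without Glia replicate 3. The 4 counts of 6, 5, 12 and 10 depended on the processing too, and were 1, 3, 3 and 2 after centring on housekeeping genes, 4, 4, 5 and 2 after centring on the other bright genes, 13, 10, 14 and 14 with an offset of 16 added before log2, and 12, 7, 14 and 12 with a trended, robust prior. For the 36 bright members the 95% interval of the change lay within 2-fold in either direction for 33 in Glia, 35 in Autonomic and 33 in Mesenchymal against NCSCs arrays, and within 1.5-fold for 23, 27 and 22.

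**Figure D1:**
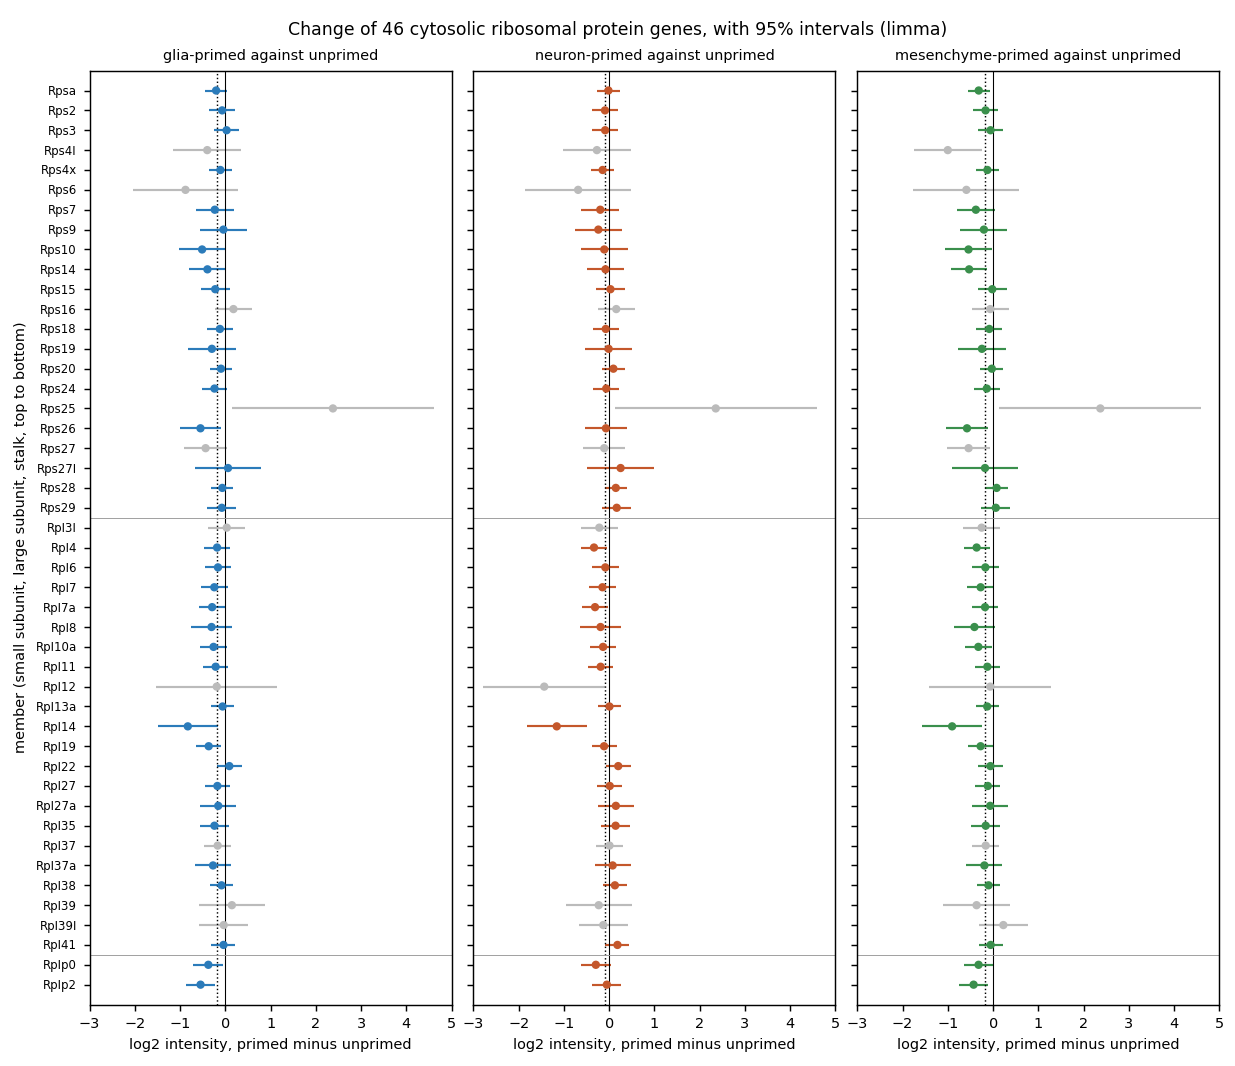
Log2 intensity of each primed group minus unprimed NCSCs for the 46 members, one row a gene and one panel a comparison, with limma's 95% interval as a line; grey rows are the 10 members below the brightest 10% of genes, and the dotted line is the median over members. The medians sit at -0.19, -0.08 and -0.18. Centring on housekeeping genes puts them at 0.03, 0.11 and -0.08, and the median of all genes at 0.21, 0.19 and 0.09. Rps25 has the widest interval, and Rpl14 lies below 0 in all 3 panels.

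With the deposited scaling, both measured stalk protein genes were lower on every Glia array than on any NCSCs array. So were 4.16% of all genes and 200 of the 1784 other bright genes. Both stalk protein genes stayed below 0 in Glia after centring on housekeeping genes, with a mean change of -0.24 against -0.46 as deposited. Rplp2, which with its partner Rplp1 contacts the elongation factors, had log2 intensities of 12.01, 12.13, 11.86 and 12.50 on Glia, 12.65, 12.56, 12.58 and 12.69 on Autonomic, 12.34, 12.10, 12.30 and 12.22 on Mesenchymal and 12.71, 12.61, 12.52 and 12.86 on NCSCs arrays. Glia and Mesenchymal arrays thus lay below every NCSCs array, and Autonomic arrays overlapped with them. Its log2 change was -0.55 in Glia (SE 0.15, adjusted p = 0.165), -0.05 in Autonomic (SE 0.15, adjusted p = 0.953) and -0.43 in Mesenchymal arrays (SE 0.15, adjusted p = 0.525). The glia value was -0.67 without Glia replicate 4 (adjusted p = 0.0778), and over all alternatives it ran from -0.67 to -0.33, with adjusted p from 0.0524 to 0.669. Rplp0, the scaffold that holds the stalk to the large subunit, had 11.45, 11.75, 11.76 and 11.82 on Glia, 11.79, 12.06, 11.61 and 11.62 on Autonomic, 11.59, 11.86, 11.64 and 11.90 on Mesenchymal and 12.14, 12, 11.89 and 12.24 on NCSCs arrays. Its log2 change was -0.38, -0.30 and -0.32 in the 3 primed groups (SE 0.15 each, adjusted p = 0.416, 0.576 and 0.655), and only the Glia arrays were free of overlap with NCSCs.

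Of the 22 small subunit members, 18 lay below 0 in Glia, 15 in Autonomic and 19 in Mesenchymal against NCSCs arrays, with medians of -0.16, -0.08 and -0.17, or 0.056, 0.12 and -0.079 after centring on housekeeping genes, and no call in any. Rpsa, a small subunit protein also known as the laminin receptor, had 12.92, 12.77, 12.83 and 12.86 on Glia, 13.13, 12.98, 12.998 and 13.02 on Autonomic, 12.72, 12.76, 12.65 and 12.79 on Mesenchymal and 13.08, 13.01, 12.94 and 13.17 on NCSCs arrays. Mesenchymal and Glia arrays lay below all NCSCs arrays, with log2 changes of -0.32 (SE 0.12, adjusted p = 0.532) and -0.20 (SE 0.12, adjusted p = 0.608), while the Autonomic value was -0.02 (adjusted p = 0.984). Rps26, which lines the mRNA exit channel, was 9.48, 9.99, 9.85 and 10.48 on Glia, 10.63, 10.73, 10.27 and 10.07 on Autonomic, 10.26, 9.65, 9.82 and 9.96 on Mesenchymal and 10.54, 10.48, 10.50 and 10.48 on NCSCs arrays. The 4 NCSCs arrays were nearly alike, whereas Glia arrays spread over 1 log2 unit and met them at the top.

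Rps26 differed by -0.55 in Glia (SE 0.21, adjusted p = 0.380), -0.07 in Autonomic and -0.58 in Mesenchymal arrays (SE 0.21, adjusted p = 0.532). Rps14, encoded in the region lost in the human 5q- syndrome, differed by -0.40, -0.08 and -0.53 in the same order (SE 0.19 each), and Rps10 by -0.51, -0.11 and -0.54 (SE 0.24 each), with adjusted p of 0.511 or more. Rps19, the gene most often mutated in Diamond-Blackfan anaemia in humans, differed by -0.30, -0.01 and -0.25 (SE 0.24 each). On the probe sets kept, Rps28 stood at -0.07, 0.15 and 0.08 (SE 0.12 each) and Rps29 at -0.08, 0.17 and 0.06 (SE 0.15 each). Other bright probe sets of Rps28 gave -0.17 and -0.13 in Glia, -0.04 and 0.06 in Autonomic and -0.08 and -0.05 in Mesenchymal arrays. Those of Rps29 gave -0.19 and -0.23 in Glia, 0.27 and 0.32 in Autonomic and -0.07 and -0.10 in Mesenchymal arrays. Rps3, which also takes part in DNA repair, differed by 0.03, -0.09 and -0.06 (SE 0.13 each). A dimmer Rps3 probe set, still in the bright range, gave -0.64, -0.12 and -0.36.

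Of the 22 large subunit members outside the stalk, 19 lay below 0 in Glia, 13 in Autonomic and 21 in Mesenchymal against NCSCs arrays, with medians of -0.18, -0.12 and -0.17, or 0.039, 0.067 and -0.074 after centring on housekeeping genes, and no call. Rpl14 had 8.38, 9.23, 9.38 and 8.499 on Glia, 8.60, 8.36, 7.83 and 9.37 on Autonomic, 8.57, 9.27, 8.51 and 8.82 on Mesenchymal and 9.94, 9.70, 9.64 and 9.53 on NCSCs arrays. All 12 primed arrays lay below all 4 NCSCs arrays, which held for no other member and for 0.407% of all genes in that direction. The same separation was seen for Rps3a1, a small subunit protein gene that the naming rule leaves out. The log2 change of Rpl14 was -0.83 in Glia (SE 0.31, adjusted p = 0.352), -1.16 in Autonomic (SE 0.31, adjusted p = 0.1497) and -0.91 in Mesenchymal arrays (SE 0.31, adjusted p = 0.512). The autonomic value ran from -1.44 without Autonomic replicate 4 to -0.92 without Autonomic replicate 3. Averaged over the 3 primed groups, Rpl14 differed by -0.97 (SE 0.25, adjusted p = 0.151).

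Rpl19, which takes part in a bridge between the subunits, was 11.22, 11.51, 11.24 and 11.23 on Glia, 11.60, 11.57, 11.42 and 11.63 on Autonomic, 11.19, 11.43, 11.52 and 11.43 on Mesenchymal and 11.73, 11.57, 11.69 and 11.68 on NCSCs arrays. Glia and Mesenchymal arrays lay below all NCSCs arrays, with log2 changes of -0.37 (SE 0.13, adjusted p = 0.316) and -0.28 (SE 0.13, adjusted p = 0.648). Rpl4, a core protein that lines the exit tunnel for the new peptide, had 12.04, 12.24, 12.03 and 12.01 on Glia, 11.89, 11.995, 11.92 and 11.90 on Autonomic, 11.91, 11.73, 11.81 and 12.14 on Mesenchymal and 12.41, 12.09, 12.19 and 12.36 on NCSCs arrays. Here the Autonomic arrays were the ones wholly below NCSCs, with a log2 change of -0.34 (SE 0.13, adjusted p = 0.409), beside -0.18 in Glia and -0.36 in Mesenchymal arrays. Rpl7a differed by -0.29, -0.31 and -0.18 (SE 0.14 each). Rpl11, which can bind and inhibit Mdm2 when ribosome assembly is disturbed, differed by -0.21, -0.19 and -0.13 (SE 0.13 each), Rpl10a by -0.26, -0.14 and -0.33 (SE 0.14 each) and Rpl8 by -0.30, -0.19 and -0.41 (SE 0.21 each). Rpl22 stood at 0.09, 0.20 and -0.06 and Rpl41 at -0.04, 0.18 and -0.06 (SE up to 0.13). Another bright probe set gave -0.12, 0.05 and -0.14 for Rpl22 and -0.06, -0.0002 and -0.13 for Rpl41.

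**Figure D2:**
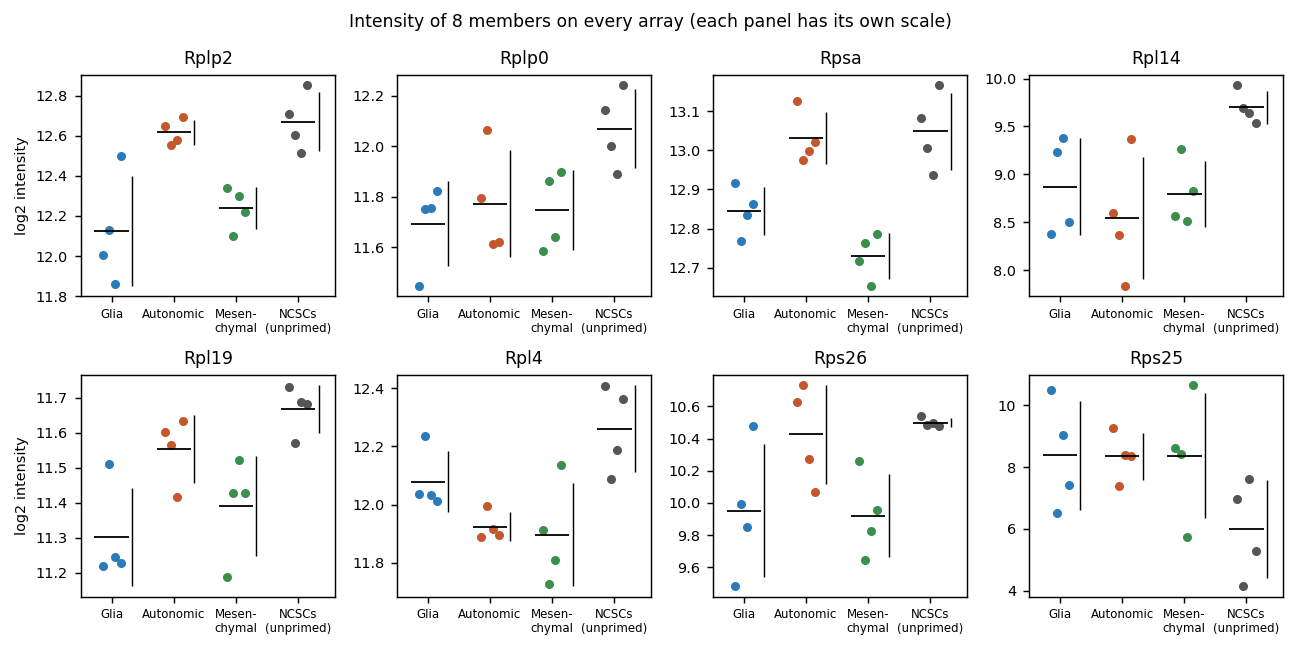
Log2 intensity of 8 members on each of the 16 arrays (points), with the group mean (horizontal bar) and SD (vertical line) for Glia, Autonomic, Mesenchymal and unprimed NCSCs; each panel has its own axis. Rpl14 is below all NCSCs arrays in every primed group, Rplp2 and Rpsa are so in Glia and Mesenchymal but not Autonomic, and Rps25 spreads over several log2 units within groups.

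Counted over members, 10 had all 4 Glia arrays below all 4 NCSCs arrays, against 4.16% of all genes. They were Rpl10a, Rpl14, Rpl19, Rpl7a, Rplp0, Rplp2, Rps14, Rps19, Rps4x and Rpsa. The same separation occurred for 14 members in Mesenchymal arrays (3.29% of all genes) and for 4 in Autonomic arrays (Rpl11, Rpl14, Rpl4 and Rpl7a, 3.24% of all genes). Rpl38 was the 1 member with all Autonomic arrays above all NCSCs arrays (2.29% of all genes), at 12.83, 12.83, 12.86 and 12.81 on Autonomic against 12.66, 12.76, 12.79 and 12.62 on NCSCs arrays, a log2 change of 0.13 (SE 0.12, adjusted p = 0.812). Members share arrays and their scaling, so these counts are not independent, and among other genes of the brightest 10%, 200 of 1784 were separated in this way in Glia, 174 in Autonomic and 157 in Mesenchymal arrays.

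Setting the primed groups against each other, limma called 0 of 46 members in each of the 3 comparisons, against 0.0110% of all genes for Glia and Autonomic, 0.225% for Glia and Mesenchymal and 0.346% for Autonomic and Mesenchymal. The median log2 difference was -0.12 for Glia minus Autonomic and 0.13 for Autonomic minus Mesenchymal arrays, with medians of 0.03 and -0.02 over the other bright genes, and 0.02 for Glia minus Mesenchymal arrays, which turned to -0.0079 when centred on the other bright genes. Centred on those genes and on housekeeping genes, the first median was -0.14 and -0.098, and the second 0.12 and 0.23. At an unadjusted p under 0.05, 3 members were lower in Glia than in Autonomic arrays (Rpl35, Rplp2 and Rps26, against 3.39% of all genes). Between Glia and Mesenchymal arrays there were 0 in either direction (7.05% of all genes), and 1 without Mesenchymal replicate 4. Between Autonomic and Mesenchymal arrays, Rplp2, Rps14, Rps26 and Rpsa were higher in Autonomic (4 members, against 4.35% of all genes) and Rpl12 was lower (1 member, against 3.88%).

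The Glia count of 3 became 8 without Glia replicate 4, 6 without Autonomic replicate 3 or 4, and 1 without Glia replicate 1 or Autonomic replicate 2, while the count of 5 for Autonomic and Mesenchymal became 1 without Mesenchymal replicate 2 and 3 without Mesenchymal replicate 1 or 3. These counts of 3 and 5 were 11 and 8 with an offset of 16, 10 and 9 with a trended, robust prior, and 1 and 3 after centring on housekeeping genes. Rplp2 was -0.49 in Glia relative to Autonomic (SE 0.15, adjusted p = 0.584) and 0.38 in Autonomic relative to Mesenchymal arrays (SE 0.15, adjusted p = 0.496). Rpsa was 0.30 in Autonomic relative to Mesenchymal arrays (SE 0.12, adjusted p = 0.465), and it was the 1 member called under any alternative, in this comparison with an offset of 16 added before log2 (adjusted p = 0.0353). In 7 members all Autonomic arrays lay above all Mesenchymal arrays (2.09% of all genes), namely Rpl22, Rpl35, Rpl38, Rpl41, Rplp2, Rps27 and Rpsa. In 5 members all Glia arrays lay below all Autonomic arrays (1.60% of all genes), and for Rpl4 alone they lay above (1 member, against 1.36%).

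Members outside the brightest 10% were noisy or dim. Rps25, a small subunit protein needed for initiation at some viral internal entry sites, had 10.50, 6.52, 9.06 and 7.43 on Glia, 9.28, 7.40, 8.38 and 8.35 on Autonomic, 8.63, 8.44, 5.74 and 10.67 on Mesenchymal and 6.97, 4.13, 7.63 and 5.27 on NCSCs arrays. Every primed group overlapped with NCSCs, and the log2 changes of 2.38, 2.35 and 2.37 had an SE of 1.04 (adjusted p = 0.461, 0.475 and 0.617). Rps6, the substrate of the S6 kinases below mTOR, was 5.36, 5.18, 6.52 and 6.23 on Glia, 6.35, 6.23, 5.27 and 6.21 on Autonomic, 6.49, 6.58, 4.52 and 6.86 on Mesenchymal and 6.42, 7.19, 5.48 and 7.70 on NCSCs arrays, with overlap throughout and log2 changes of -0.88, -0.69 and -0.59 (SE 0.55). Rpl12, part of the stalk base, differed by -0.19, -1.44 and -0.06 (SE 0.63, adjusted p = 0.465 in Autonomic).

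Among the paralogs, Rps4l had 6.48, 5.91, 5.63 and 6.24 on Glia, 5.67, 6.58, 6.0005 and 6.51 on Autonomic, 5.57, 5.58, 4.38 and 6.32 on Mesenchymal and 6.39, 6.76, 6.09 and 6.62 on NCSCs arrays. The Mesenchymal arrays reached lowest but overlapped with NCSCs, and the change was -1.002 (SE 0.35, adjusted p = 0.523). Rps27l, a p53-induced relative of Rps27, differed by 0.06, 0.25 and -0.18 in Glia, Autonomic and Mesenchymal arrays (SE 0.34). The standard subunit protein Rpl39 and the paralogs Rpl39l and Rpl3l ranged from -0.37 to 0.23 over the 3 comparisons, with all groups overlapping. Rps16, dimmest of all, stood at 0.18, 0.16 and -0.06 (SE 0.19). Rps27, like Rps16 a standard subunit protein and no restricted paralog, was low at a mean of 2.87, a value that describes the probe set. Its change was -0.54 in Mesenchymal arrays (SE 0.22, adjusted p = 0.567). The near names Rps3a1, Rpl22l1 and Rpl7l1 fall outside the naming rule, and Rps3a1, a small subunit protein, differed by -0.34, -0.41 and -0.31 (SE 0.13, adjusted p = 0.364, 0.240 and 0.5995) with all arrays of each primed group below NCSCs.

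Different probe sets of a gene did not always give the same size of change. The 46 members had 100 single-symbol probe sets, and 19 genes had more than 1 within the bright range, 54 probe sets in all. With the deposited scaling, all bright probe sets of a gene lay below 0 for 15 of the 19 genes in Glia, 5 in Autonomic and 16 in Mesenchymal against NCSCs arrays, and they were mixed in sign for 4, 8 and 3. For Rpl13a, a large subunit protein with a known role in silencing inflammatory mRNAs, the probe set kept (mean 13.10) gave -0.06, 0.00 and -0.13, whereas its dimmest bright probe set (mean 9.88) gave -0.72, -0.37 and -0.87. Over the 36 bright members, the 18 brighter ones had median changes, as deposited, of -0.11, -0.01 and -0.13, and the 18 dimmer ones -0.25, -0.11 and -0.26. Saturation and signal over background were not measured.

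The level of the members was also followed array by array. The mean log2 intensity of the 36 bright members was 11.44 ± 0.10 on Glia, 11.58 ± 0.09 on Autonomic, 11.43 ± 0.06 on Mesenchymal and 11.65 ± 0.06 on NCSCs arrays (SD, n = 4 each). The 1784 other bright genes averaged 9.31 ± 0.07 on Glia, 9.29 ± 0.08 on Autonomic, 9.32 ± 0.07 on Mesenchymal and 9.43 ± 0.01 on NCSCs arrays (SD, n = 4 each). Members minus other bright genes came to 2.12 ± 0.11 on Glia, 2.29 ± 0.08 on Autonomic, 2.10 ± 0.06 on Mesenchymal and 2.22 ± 0.06 on NCSCs arrays (SD, n = 4 each). Relative to other bright genes, Autonomic arrays were thus at 2.20 to 2.40 and overlapped with NCSCs arrays at 2.16 to 2.28, and Mesenchymal arrays at 2.03 to 2.16 met the lower edge of the NCSCs range. Glia replicate 4, at 2.29, stood above the other Glia arrays, which lay between 2.04 and 2.09.

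Control probe sets are given beside these values, without a test. The 3′ minus 5′ log2 intensity of Gapdh, a measure of RNA integrity and labelling length, was 2.95 ± 0.39 on Glia, 2.85 ± 0.24 on Autonomic, 2.96 ± 0.22 on Mesenchymal and 2.35 ± 0.19 on NCSCs arrays (SD, n = 4 each), and that of beta-actin was -0.17 ± 0.08, -0.50 ± 0.28, -0.28 ± 0.15 and -0.53 ± 0.16 in the same order. The 5′ control probe set for 18S ribosomal RNA stood at 12.79 ± 0.15 on Glia, 13.06 ± 0.16 on Autonomic, 12.85 ± 0.10 on Mesenchymal and 13.14 ± 0.03 on NCSCs arrays (SD, n = 4 each). Glia arrays overlapped with NCSCs arrays in Gapdh, Autonomic arrays in all 3 measures and Mesenchymal arrays in beta-actin. The part of RNA quality in the members' values was not tested.

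**Figure D3:**
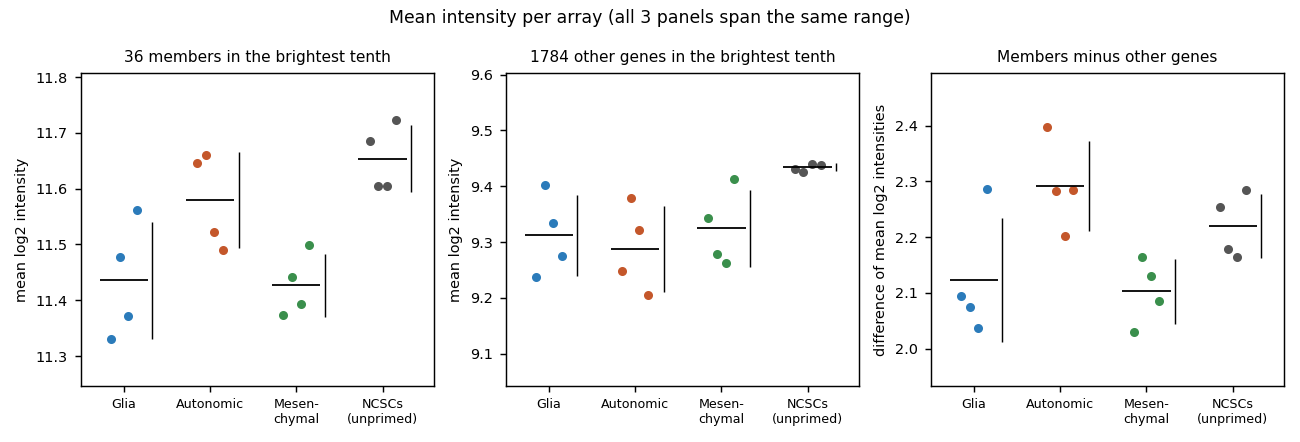
Mean log2 intensity per array of the 36 bright members, of 1784 other genes of the brightest 10%, and the difference between them, for Glia, Autonomic, Mesenchymal and unprimed NCSCs; bars are group means and vertical lines SDs. Members average 11.44, 11.58, 11.43 and 11.65, and minus the other genes 2.12, 2.29, 2.10 and 2.22, so that the Autonomic mean lies below the NCSCs mean in the first panel and above it in the third.

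Members varied together to a moderate degree. Over the 630 pairs of the 36 bright members and 16 arrays, the median Pearson correlation was 0.35, with 87.1% of pairs above 0, and for deviations from group means it was 0.20, with 71.1% above 0. All pairs share arrays, labelling and normalization. The correlation of a member with the mean of the other 35 was 0.83 for Rps26, 0.82 for Rps14, 0.82 for Rplp0 and 0.80 for Rplp2, and it was lowest for Rps27l (-0.03), Rps29 (0.14), Rps28 (0.18) and Rpl14 (0.20).

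Genes that work with the ribosome were set beside the members, and few were called. None of 32 measured translation initiation factors was called by limma in any of the 7 comparisons, while at an unadjusted p under 0.05, 4 were lower and 1 higher in Glia, 6 lower and 1 higher in Autonomic and 5 lower and 0 higher in Mesenchymal than in NCSCs arrays. All genes gave 5.91% lower and 4.00% higher, 5.51% and 4.29%, and 4.56% and 3.14% in the same order. Their median log2 changes in these groups were -0.16, -0.17 and -0.20, or 0.058, 0.017 and -0.11 after centring on housekeeping genes. Of 67 ribosome biogenesis genes, with medians of -0.19, -0.27 and -0.35 (0.026, -0.081 and -0.25 centred on housekeeping genes), only Noc2l fell, in Autonomic arrays and in the mean of the primed groups. In these comparisons 0.434% and 0.445% of all genes were called. Noc2l, known from large subunit assembly in yeast, had 9.28, 9.46, 9.30 and 8.87 on Autonomic against 10.39, 10.37, 10.06 and 10.05 on NCSCs arrays. All Autonomic arrays were lower, and the log2 change was -0.99 (SE 0.18, adjusted p = 0.0294), although the call was lost under 9 of 20 alternatives. This value comes from the brighter of the 2 Noc2l probe sets. Over those alternatives, which included other choices of probe set, the change ran from -1.07 to -0.29, with adjusted p up to 0.859. The call for the mean of the primed groups was lost under 9 of 28. The nucleolar proteins Fbl, Ncl and Npm1 gave -0.60, -0.29 and 0.06 in Glia against NCSCs arrays, with none called.

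Of 76 mitochondrial ribosomal protein genes, with medians of -0.32 in Glia, -0.14 in Autonomic and -0.34 in Mesenchymal against NCSCs arrays (-0.10, 0.055 and -0.24 centred on housekeeping genes), 1 fell in Glia (0.511% of all genes were called there) and none in the other groups. It was Mrps18c, at 8.27, 8.69, 8.65 and 8.49 on Glia against 9.57, 9.40, 9.36 and 9.85 on NCSCs arrays, a log2 change of -1.02 (SE 0.16, adjusted p = 0.0114), also called against Mesenchymal arrays at -0.89 (adjusted p = 0.0352, lost under 12 of 20 alternatives). Among 12 elongation factors and companions, with medians of -0.16, -0.19 and -0.16 (0.055, 0.0030 and -0.066 centred on housekeeping genes), only Eef1e1, which sits in the aminoacyl-tRNA synthetase complex, was called, with 7.62, 7.92, 8.87 and 8.89 on Glia against 6.68, 6.16, 5.79 and 6.88 on Mesenchymal arrays (log2 difference 1.95, SE 0.36, adjusted p = 0.0381). Of all genes, 0.225% were called between these groups. Fau, which carries the small subunit protein eS30, differed by -0.35, -0.08 and -0.48 in Glia, Autonomic and Mesenchymal against NCSCs arrays (SE 0.20, adjusted p = 0.592 at the lowest). Eef1a1 and Eef2 gave -0.13 and -0.30 in Glia, -0.20 and -0.35 in Autonomic and -0.13 and -0.35 in Mesenchymal arrays. Rack1 is not analysed here.

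Of 15 measured regulators of ribosome supply, with medians of 0.23, -0.05 and -0.15 (0.44, 0.14 and -0.052 centred on housekeeping genes), Mycn, a proto-oncogene that drives ribosomal protein and biogenesis genes, was the only one called. It had 7.68, 6.89, 6.89 and 6.67 on Autonomic against 8.74, 9.39, 9.29 and 9.56 on Mesenchymal arrays, a log2 difference of -2.21 (SE 0.30, adjusted p = 0.00434). Against NCSCs arrays, at 9.25, 9.33, 9.23 and 8.61, Mycn fell in Autonomic arrays, with a log2 change of -2.07 (SE 0.30, adjusted p = 0.00719). Of all genes, 0.346% were called between Autonomic and Mesenchymal and 0.434% between Autonomic and NCSCs arrays. Myc differed by 0.38, -0.05 and -1.44 in Glia, Autonomic and Mesenchymal against NCSCs arrays (SE 0.52, adjusted p = 0.532 in Mesenchymal), with all Mesenchymal arrays below NCSCs. Larp1, which binds the terminal oligopyrimidine motif, differed by 0.24, -0.25 and -0.44 (SE 0.21) and Mtor by 0.23, 0.01 and -0.32 (SE 0.30). The cytosolic ribosomal proteins' own median in Autonomic arrays was -0.08, or 0.11 after centring on housekeeping genes. For the biogenesis genes it was -0.27, or -0.081 after that centring. The part of Mycn in either list was not tested.

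**Figure D4:**
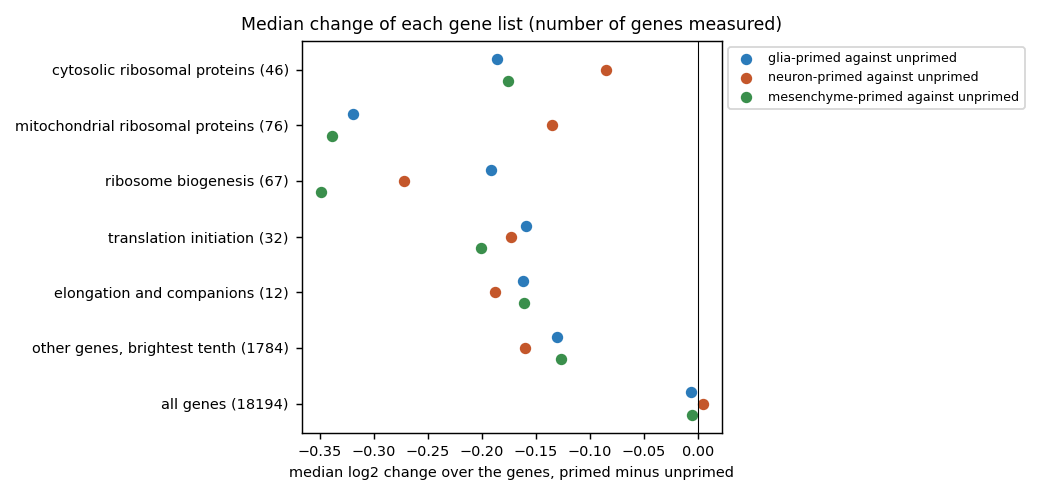
Median log2 change over the genes of each list (number measured in brackets), for Glia, Autonomic and Mesenchymal against unprimed NCSCs, one colour a comparison, with the deposited scaling. The cytosolic ribosomal proteins sit at -0.19, -0.08 and -0.18 and other bright genes at -0.13, -0.16 and -0.13. Centring on housekeeping genes puts the ribosomal proteins at 0.03, 0.11 and -0.08 and all genes at 0.21, 0.19 and 0.09.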

How the data were processed

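Each deposited value is the intensity of 1 probe set on 1 array, which the authors obtained with RMA (version not stated) per the submitters' processing notes. The intensities run from 1.49 to 31600, so they are linear, and log2 was taken here of the deposited values with no offset or further scaling. Per the labels' protocols, cRNA came from 2 ug of total RNA. Of 45101 probe sets, 34958 carry a single symbol and were used, and current symbols came from the RefSeq gene table of GRCm38.p6, matched by Entrez identifier. No pair of arrays was identical. For arrays their number limits the precision.

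limma 3.58.1 (lmFit, eBayes) under R 4.3.3 fitted a mean for each group over 16 arrays. Tests were two-sided, with Benjamini-Hochberg adjustment over 18194 genes in each of 7 comparisons and calls at an adjusted p under 0.05. The model was tested on simulated data. Members and gene lists were chosen with earlier results of these data known. Members were named as the 6 brightest and 4 dimmest, the 6 with the highest and the 6 with the lowest change in each primed group, the 4 steadiest and 4 most variable, and the stalk, Rpsa, Rps6 and paralogs always. Of other lists the called genes, Rack1, Fau, Myc, Mycn and Larp1 were named. Further members, Rps3a1, Eef1a1, Eef2, Mtor, Fbl, Ncl and Npm1 were added for their roles or array separation with values known. Alternatives covered scaling, offset, probe set choice, filters, the variance model, array weights, a block and each array left out.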

Additional observations from a re-analysis of the deposited data

Results flagged for a closer look

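In 64 groups of 4 arrays (15 named members and the mean of the 36 bright members, in each of the 4 groups), 2 held an array far from the other 3, and chance alone picks out about 1 group in 20. Both were Glia replicate 2. Rpl19 was 11.51 there, against 11.22 to 11.24 on the other Glia arrays, and Rpl4 was 12.24, against 12.01 to 12.04. Without that array the Rpl19 difference from NCSCs was -0.44, against -0.37 with it, and neither was called.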

How the results depend on the processing

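The count of 0 members called held under all 28 alternatives in each of the 4 comparisons with NCSCs arrays, with smallest adjusted p-values of 0.0524 in Glia, 0.0668 in Autonomic, 0.0793 in Mesenchymal and 0.0614 in the mean of the primed groups. Between primed groups 0 were called as well, except Rpsa in Autonomic against Mesenchymal arrays with an offset of 16 (adjusted p = 0.0353). Median member changes depended on scaling and on the choice of probe sets, in the order Glia, Autonomic, Mesenchymal and mean of the primed groups. Centring on the other bright genes gave -0.092, 0.022, -0.058 and -0.042. Housekeeping centring gave 0.031, 0.11, -0.081 and 0.019, with all-gene medians at 0.21, 0.19, 0.09 and 0.17. Leaving out probe sets ending in _x_at, _s_at or _a_at kept 25 members and gave -0.33, -0.22, -0.25 and -0.22. Quantile normalization gave -0.095, -0.038, -0.12 and -0.068. The cause was not tested. Leaving out single arrays gave ranges of -0.21 to -0.15, -0.11 to -0.04, -0.22 to -0.15 and -0.19 to -0.12.

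With a replicate block, member medians stayed at -0.19, -0.08, -0.18 and -0.15 and 0 members were called. No pairing by replicate number was seen in the deviations from group means over all genes. These correlated at -0.07 to 0.06 between same-numbered arrays of different groups (mean -0.0076). Arrays of different groups with different numbers gave -0.10 to 0.20 (mean 0.0026). None of the member changes with an unadjusted p under 0.05 against NCSCs arrays that were recomputed changed sign. Calls of genes outside the members were less stable, and Mrps18c in Glia against NCSCs, Noc2l in Autonomic and Eef1e1 lost theirs under 3, 9 and 9 of 20 alternatives, and Mycn in Autonomic against NCSCs under 2. The number of all genes called, 93 in Glia, 79 in Autonomic, 4 in Mesenchymal and 81 in the mean, ran from 25 to 168, 17 to 237, 0 to 9 and 11 to 171. Centring on housekeeping genes turned its split from 34 higher and 59 lower to 48 and 22 in Glia, and from 24 and 55 to 36 and 23 in Autonomic. With 4 arrays a group and no measure of signal over background, changes of dim probe sets are rough.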
